A study of Mus musculus with 22 samples.

Results

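The clustered protocadherins are cell-surface adhesion genes that lie in 3 neighbouring clusters, alpha, beta and gamma, on mouse chromosome 18. Members were all genes on that chromosome whose symbols start with Pcdha, Pcdhb or Pcdhg, which gave 58 of 49997 RefSeq genes with an extent: 14 alpha, 22 beta and 22 gamma genes. In mm10 the alpha cluster spans chr18:36930285-37188897, the beta cluster chr18:37264998-37521419 and the gamma cluster chr18:37661775-37841873. Of the regions in which chromatin marks were counted, those within 2500 bp of a member gene were kept and each was counted once. This left 50 of 135566 regions for H3K27ac, an acetylation found at active promoters and enhancers, and 19 of 68845 for H3K9me3, a methylation found in silenced chromatin. Below, regions are numbered from left to right along the chromosome, separately for each mark.

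In the alpha and gamma clusters, each gene has its own variable first exon with its own promoter, which is spliced to constant exons shared by the cluster. Beta genes have a single coding exon and no shared constant exons. In neurons a few variable promoters are used per cell, with CTCF and cohesin joining the chosen promoter to a distant enhancer, and the resulting protein mix gives the cell a surface identity. The c-type genes (Pcdhac1, Pcdhac2, Pcdhgc3, Pcdhgc4 and Pcdhgc5) lie next to the constant exons and are less subject to that choice. DNA methylation, H3K9 methylation by SETDB1 and the structural protein SMCHD1 are known repressors of these genes.

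The data are chromatin immunoprecipitation with sequencing on cells made from embryonic fibroblasts (MEFs) of C57BL/6 mice. Both histone marks were mapped in 3 induced pluripotent stem (iPS) cell lines with 2 libraries per line and mark. C2 cells had received the zinc-finger artificial factors ZFATF1, ZFATF2 and ZFATF3 with Sox2, Klf4 and c-Myc. C3 cells had received ZFATF1, ZFATF2 and ZFATF4 with the same 3 factors, and OSKM cells Oct4 with them, so OSKM is the line made with the natural factor. All iPS cells carried an Oct4-MerCreMer Tomato/GFP reporter and were given 100 nM 4-hydroxytamoxifen. The HA tag of the artificial factors was mapped in C2 cells at day 20 after transduction, which still express them and are not fully reprogrammed, and in cells given an Empty vector with Sox2, Klf4 and c-Myc, with 2 libraries each. Whether the replicates were separate cultures is not labelled, so p-values measure only the spread between these libraries, and each line stands for 1 factor mix. C2 and OSKM shared a pair of input controls and C3 had its own, so a difference between inputs and a difference of C3 from OSKM or C2 cannot be told apart.

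The recovered reads in regions came to 7033486 to 17649231 per H3K27ac library and 3412599 to 8548902 per H3K9me3 library. The HA libraries kept 1629753 to 3896935 tags, with 92% to 94% of tags redundant. Levels below are reads per 1000000 reads in regions (RPM) unless normalized reads, the authors' scale, are named. A value of 1 read is the lowest the region tables hold. Summed over the 10 pluripotency genes checked, H3K27ac ran from 2077.9 to 3655.8 RPM per library. In C2 against OSKM 5 of these 10 were lower, and in C3 against OSKM 1. Over all regions, weak ones included, 3.91% were lower and 3.72% higher in C2 against OSKM by the same test. In C3 against OSKM 6.13% were lower and 9.67% higher. Of 6 endoderm markers, 4 were higher in C2 and 5 in C3, with summed levels of 155.1 to 314.0 RPM in C2 and C3 libraries and 42.4 and 63.0 RPM in OSKM. Of 10 neuronal markers, 2 were lower in C2, and in C3 1 was higher and 2 lower, with summed levels of 132.6 to 174.9 RPM. The neuronal markers differed widely. Dcx, which marks young neurons, was near 1 read at 0.057 to 0.184 RPM. Map2 and Snap25 were also low, at 0.077 to 0.995 and 0.057 to 2.844 RPM. The others held at least 4.419 RPM in every library, with 23.87 to 61.77 RPM at Tubb3. Of 6 fibroblast markers with a region, 1 (Pdgfra) was higher in each line, with summed levels of 143.7 to 181.9 RPM. Most of that sum was Fn1, at 120.993 to 169.996 RPM. Col1a1, Thy1, Twist1 and Prrx1 held 0.323 to 4.558 RPM, and Col1a2 and S100a4 had no region. The part of these differences in the results below was not tested.

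Within 2500 bp of the genes, the gamma cluster carried most of the acetylation and the alpha cluster most of the H3K9 methylation. Per 100 kb, the gamma genes and their flanks held 21.61 H3K27ac regions, the beta genes 4.43 and the alpha genes 1.14, against 4.96 over the chromosomes. For H3K9me3 the order was alpha with 5.69, gamma with 2.16 and beta with 0, against 2.53. Inside the beta span but beyond 2500 bp of any gene, between Pcdhb8 and Pcdhb9, lay 4 more H3K9me3 regions, which summed to 112.53 to 205.17 RPM per library. The summed H3K27ac level over gamma was 318.53 and 296.86 RPM in C2, 289.87 and 325.75 RPM in C3, and 324.76 and 322.48 RPM in OSKM. In RPM the 3 lines thus overlapped in the total over gamma. On the authors' scale C2 and C3 lay below OSKM. The C2 sums were 3465.9 and 2678.9 against 4090.9 and 4117.3 normalized reads in OSKM. Those of C3 were 4279.6 and 3858.1 against 4445.0 and 4478.9. Over beta the sum was 0.89 to 6.02 RPM and over alpha 0.39 to 2.49 RPM in the 6 libraries. Peaks, called by the authors in each library, covered 7.627% to 20.219% of the gamma bases and 1.86% to 4.204% of the genome.

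**Figure D1:**
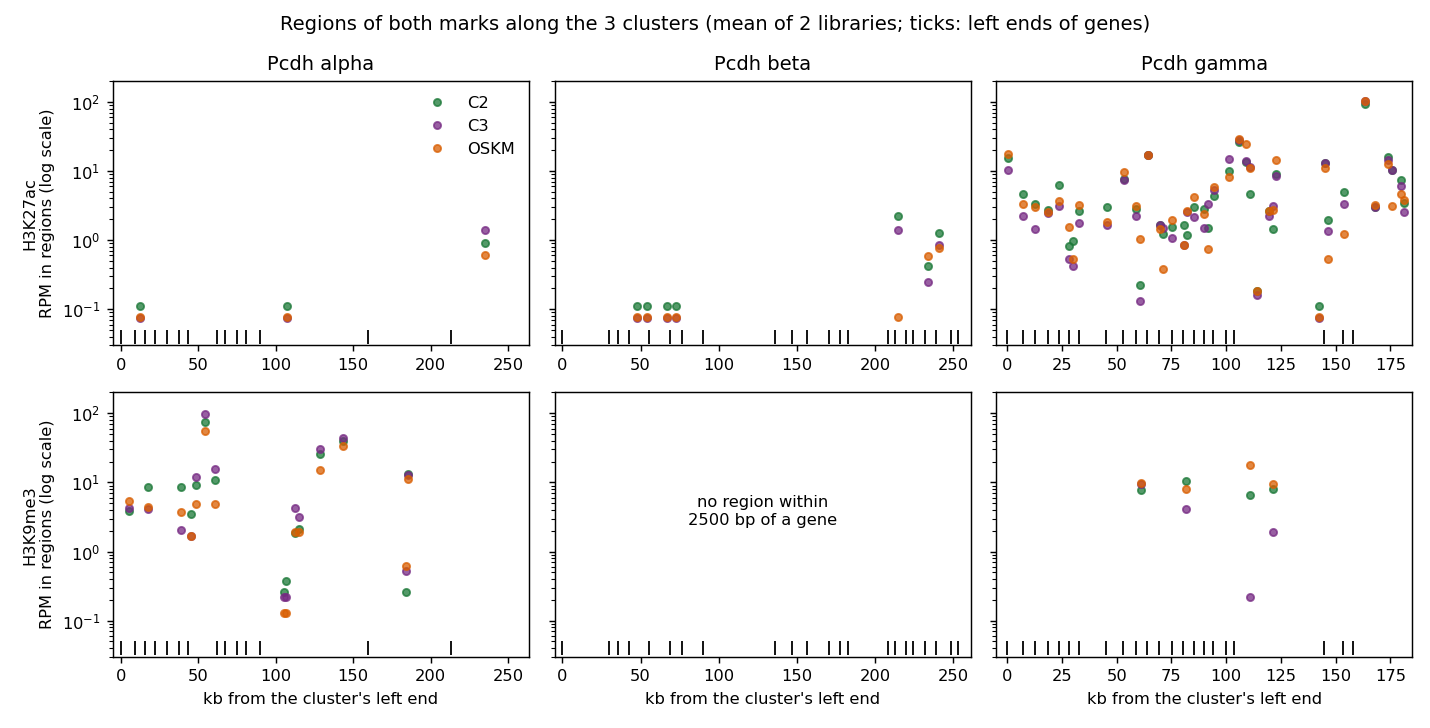
Each point is the mean of 2 libraries of a line in 1 region, in RPM on a log axis, placed by its distance in kb from the left end of its cluster, and black ticks mark the left ends of the genes. H3K27ac fills the gamma panel, with the highest point (mean 99.1 RPM over the lines) near its right side, while H3K9me3 points lie mainly in the alpha panel and none lies within 2500 bp of a beta gene.

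Nearly all gamma genes had an H3K27ac region at their left ends, though some of these regions were weak. The left end of a gamma gene is the end it does not share with its neighbours, and 21 of the 22 gamma genes had an H3K27ac region within 500 bp of it. Pcdhgc5 was the exception, with its nearest region 2268 bp away. These 21 regions held 37.2% to 44.6% of the summed H3K27ac level of gamma in the 6 libraries, and the rest lay elsewhere in the cluster. No alpha and no beta gene had such a region. Peak calls in single libraries also favoured gamma, but at fewer genes. A peak lay within 500 bp of the left end of 17 and 11 gamma genes in C2, 17 and 19 in C3 and 19 and 18 in OSKM. The low count of 11 belonged to C2 replicate 2, which had the fewest reads in regions. Among the gamma genes, 8 had such a peak in all 6 libraries, 7 in 5, 3 in 4, 2 in 2 and 2 in 1. The 8 were Pcdhga1, Pcdhga2, Pcdhga3, Pcdhga4, Pcdhga7, Pcdhga8, Pcdhga12 and Pcdhgc3. Pcdhgb2 and Pcdhgb6 had a peak in 2 libraries. Pcdhgc4, which is among the 21 genes with a region, had one in 1 library, as did Pcdhgc5. Summits near a left end had a median offset of 163.5 to 193.0 bp to its right in the 6 libraries. In alpha, Pcdhac2 had a peak at its left end in C2 replicate 1 alone, and no beta gene had one in any library.

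Acetylation differed widely between the left ends of gamma genes. The region at Pcdhga12 (region 34, chr18:37765974-37769622) was the strongest at a left end. It measured 24.95 and 27.58 RPM in C2, 23.29 and 31.96 RPM in C3, and 30.97 and 27.45 RPM in OSKM. At Pcdhga8 (region 23, chr18:37725614-37726895) the 6 values were 21.63 and 12.37, 18.58 and 15.29, and 15.65 and 17.87 RPM in the same order. In RPM the lines overlapped in both regions. On the authors' scale this held at Pcdhga8 but not at Pcdhga12. There C2 held 271.52 and 248.90 against 390.09 and 350.49 normalized reads in OSKM, and C3 343.81 and 378.51 against 423.86 and 381.26. Neither difference was called. At Pcdhga1, the first gamma gene (region 11, chr18:37661677-37662804), C3 was lowest with 12.18 and 8.66 RPM, beside 15.92 and 15.21 RPM in C2 and 16.77 and 18.23 RPM in OSKM. That order was not called in C3 against OSKM (limma, adjusted p = 0.0875). By type, the 12 a-type genes had a median of 3.86 RPM (1.52 to 27.7), the 7 b-type genes 2.25 RPM (0.97 to 11.02). The b-type maximum belonged to Pcdhgb8, which RefSeq lists as a transcribed pseudogene.

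The c-type genes of gamma were not alike. Pcdhgc3 (region 42, chr18:37805832-37807640) had 13.91 and 12.37 RPM in C2, 12.35 and 13.82 RPM in C3 and 12.10 and 9.94 RPM in OSKM. Pcdhgc4 (region 44, chr18:37814880-37816166) was weaker, with 3.40 and 6.54, 1.303 and 5.43, and 1.77 and 0.64 RPM. Both C2 libraries exceeded both OSKM libraries there, by 1.70 ± 0.66 (SE) on the log2 scale of normalized reads plus 1, without reaching the threshold (limma, adjusted p = 0.117). Pcdhac1 and Pcdhac2, the c-type genes of alpha, had no region of either mark within 2500 bp of their left ends.

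**Figure D2:**
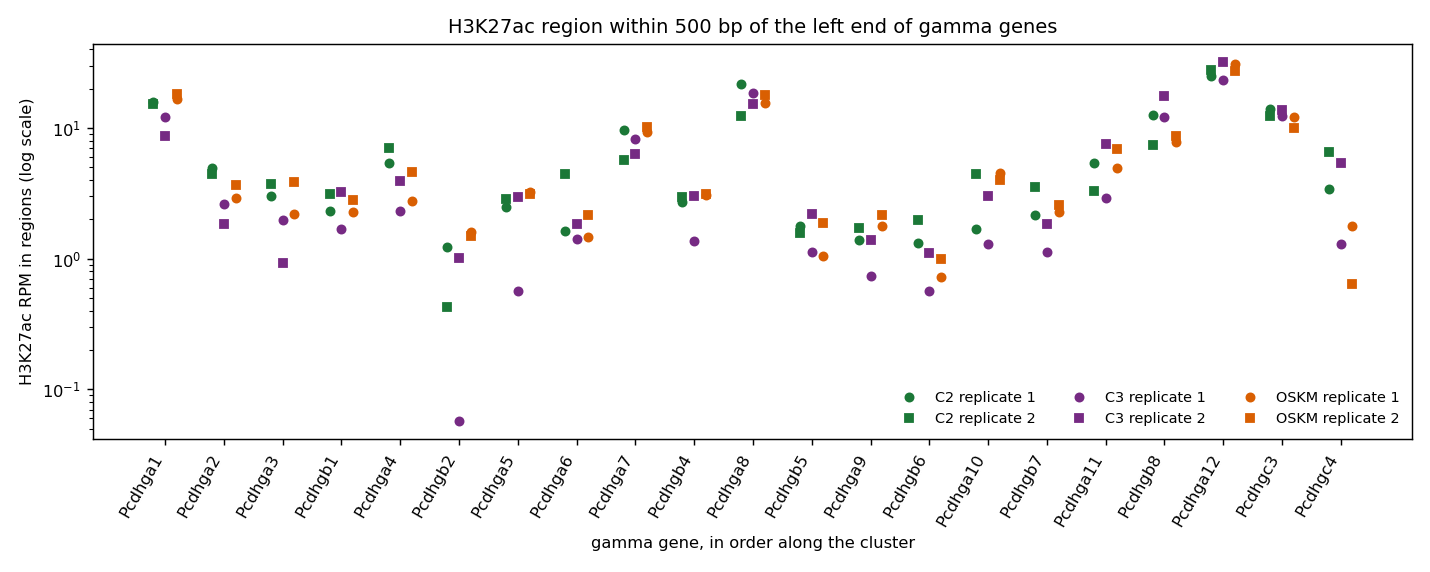
H3K27ac in RPM, on a log axis, in the region within 500 bp of the left end of 21 gamma genes, in their order along the cluster, with circles for replicate 1 and squares for replicate 2. Pcdhga12, Pcdhga8 and Pcdhga1 stand above the genes beside them in every library.

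The strongest acetylation of all lay to the right of the left end of Pcdhgc5, the last gamma gene. Region 45 (chr18:37821814-37828298) was 6485 bp wide, began 2268 bp right of the left end of Pcdhgc5 and overlapped the long noncoding RNA gene Gm29994 by 1188 bp. It held 98.89 and 87.58 RPM in C2, 109.41 and 93.94 RPM in C3, and 106.61 and 98.44 RPM in OSKM, so the lines overlapped in RPM. On the authors' scale C2 lay below OSKM, with 1076 and 790.33 against 1343 and 1256.8 normalized reads. That difference was not called (limma, adjusted p = 0.253). The mean of region 45, 99.1 RPM, compared with 27.7 RPM at Pcdhga12 and 17.3 RPM in region 35, the next in rank. These are sums over regions of unequal width and not densities. In beta, the 3 regions above 1 read in any library lay inside Pcdhb16, Pcdhb19 and Pcdhb20, at 1813, 1770 and 1802 bp from their left ends, and averaged 1.24, 0.42 and 0.96 RPM. The other 4 beta regions were at 1 read in every library. In alpha, 2 of the 3 regions were at 1 read in every library and the third (region 3, chr18:37165146-37165443) averaged 0.96 RPM.

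H3K9me3 in alpha was concentrated in a few stretches away from the left ends of the genes. Region 6 (chr18:36979473-36990237, 10765 bp) lay between Pcdha7 and Pcdha8, wholly within the pseudogene Gm36858. It held 95.39 and 55.97 RPM in C2, 108.13 and 88.01 RPM in C3 and 55.91 and 55.21 RPM in OSKM. Both C3 libraries lay above both OSKM libraries, and C2 replicate 2 lay next to OSKM. On the authors' scale the C2 libraries fell on either side of OSKM, with 487.22 and 266.22 against 339.19 and 346.60 normalized reads. Regions 13 (chr18:37072088-37075819, mean 39.1 RPM) and 12 (chr18:37057809-37060464, mean 23.8 RPM) lay in the interval between Pcdha12 and Pcdhac1, and region 15 (chr18:37115334-37116711, mean 12.4 RPM) between Pcdhac1 and Pcdhac2. None of these regions reached the left end of an alpha gene. A peak lay within 500 bp of a left end at 1 alpha gene in OSKM replicate 2 and at none in the other 5 libraries. Peaks covered 5.201% to 8.433% of the alpha bases and 1.798% to 3.535% of the genome. The summed alpha level was 246.67 and 161.17 RPM in C2, 256.62 and 208.97 RPM in C3 and 147.08 and 143.65 RPM in OSKM. On the authors' scale the C3 and OSKM sums were 1435.5 and 1136.0 against 995.3 and 987.1 normalized reads, so both scales placed C3 above OSKM. In C2 the order depended on the library, with 1259.9 and 766.6 against 892.3 and 901.8 normalized reads in OSKM.

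The region tables hold 4 narrow H3K9me3 regions in gamma, each on or near an H3K27ac region. The peak calls of OSKM replicate 1 went further, with 10 H3K9me3 peaks over 2.378% of the gamma bases, against 1 or 2 peaks in each other library. Region 17 overlapped H3K27ac region 28 by 735 bp, region 18 overlapped H3K27ac region 36 by 854 bp, region 19 overlapped H3K27ac region 39 by 777 bp, and region 16 lay 332 bp from H3K27ac region 22. That last H3K27ac region was weak, with 1 to 4 reads in 5 libraries and 26 in OSKM replicate 2. In bulk libraries, both marks on the same DNA and marks in different cells cannot be told apart. The summed level over these 4 regions was 27.16 and 38.97 RPM in C2, 15.87 and 15.64 RPM in C3 and 52.96 and 37.66 RPM in OSKM. Both C3 libraries thus lay below the other 4.

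**Figure D3:**
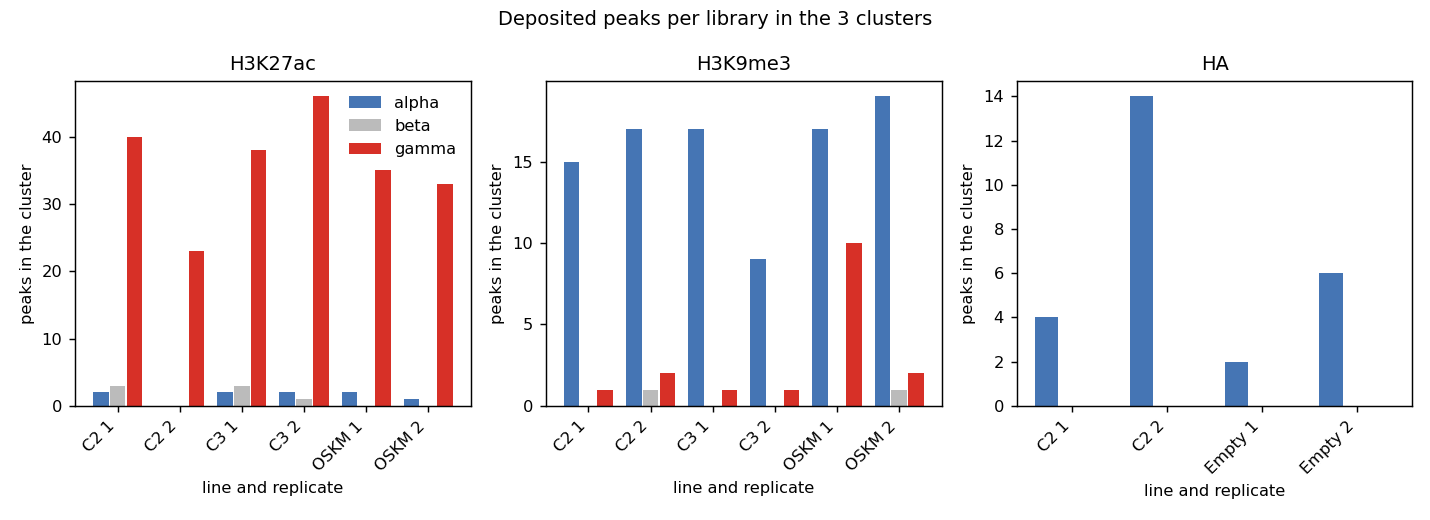
Number of deposited peaks within 2500 bp of the member genes, by cluster, for each H3K27ac, H3K9me3 and HA library. H3K27ac peaks number 23 to 46 per library in gamma, H3K9me3 peaks 9 to 19 in alpha, and HA peaks occur in alpha alone, in C2 and in Empty cells.

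The lines were then compared region by region. A region was called where limma on the log2 of normalized reads plus 1 gave a Benjamini-Hochberg adjusted p under 0.05, both over all regions and in a fit without the weakest 25%. The larger of both adjusted p-values is given throughout. The comparisons of C2 and of C3 with OSKM share the OSKM libraries and are not independent of each other.

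For H3K27ac in C2 against OSKM, 4 of the 50 regions were called, 3 lower and 1 higher in C2, while 7.63% of all regions were called (3.91% lower and 3.72% higher). The members' median difference was -0.19 on the log2 scale and that of all regions 0.06. The sign of the members' median depended on the scaling: by reads in regions, an alternative chosen after seeing the data, it was 0.15, with 2 regions called higher and 1 lower. The lower regions lay in the interval between Pcdhga12 and Pcdhgc3. Region 35 (chr18:37769927-37771782) held 154.67 and 115.47 normalized reads in C2 and 308.82 and 311.24 in OSKM, a log2 difference of -1.21 ± 0.24 (SE, limma, adjusted p = 0.0217). Region 36 (chr18:37771923-37773799) held 68.09 and 26.94 in C2 and 131.05 and 145.12 in OSKM, a difference of -1.66 ± 0.37 (limma, adjusted p = 0.0457). Regions 35 and 36 lie side by side, so their calls may not be separate results. Region 40 (chr18:37783797-37785591) held 67.25 and 105.21 against 166.60 and 195.32, a difference of -1.09 ± 0.28 (limma, adjusted p = 0.0484). In all 3 the C2 libraries lay below the OSKM libraries without overlap. The regions were picked by a test on these same libraries, so this adds no support to the calls. The region that was higher, region 48 (chr18:37836593-37838253), lies toward the shared end of the gamma genes. It held 84.06 and 118.04 normalized reads in C2 and 33.52 and 44.72 in OSKM, a difference of 1.34 ± 0.35 (limma, adjusted p = 0.0462). The count was 11 without C2 replicate 1, 1 without OSKM replicate 1 and 2 without OSKM replicate 2, where 18.6%, 3.56% and 4.31% of all regions were called. DESeq2 called 1 member, higher in C2, and 8.07% of the 93514 regions to which it gave an adjusted p. That member was none of the 4 regions above. Regions 35, 36, 40 and 48 had DESeq2 adjusted p of 0.0642, 0.104, 0.0902 and 0.189.

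For H3K27ac in C3 against OSKM, 4 of 50 regions were called, 2 in each direction, while 15.8% of all regions were called (9.67% higher and 6.13% lower). The members' median was -0.12 and that of all regions -0.06. Regions 35 and 40 were lower here too. Region 35 held 201.60 and 167.98 normalized reads in C3 and 335.55 and 338.57 in OSKM, a difference of -0.87 ± 0.23 (limma, adjusted p = 0.0272). Region 40 held 102.89 and 116.72 against 181.02 and 212.47, a difference of -0.83 ± 0.25 (limma, adjusted p = 0.0433). Region 48 was higher, with 111.26 and 155.98 normalized reads in C3 and 36.43 and 48.65 in OSKM, a difference of 1.62 ± 0.33 (limma, adjusted p = 0.0136). Region 8, inside Pcdhb16 (chr18:37479581-37480358), held 30.95 and 8.73 normalized reads in C3 and was at 1 read in both OSKM libraries. Against a floor of 3 reads per library this was at least 6.31-fold higher in C3, and from C3 replicate 2 alone at least 2.77-fold. In C2 region 8 held 36.15 and 10.26 normalized reads, which missed the threshold against OSKM (limma, adjusted p = 0.0571). The count was 1 without OSKM replicate 1 and 1 without OSKM replicate 2, where 10.1% and 12.3% of all regions were called. DESeq2 called 2 members, regions 8 and 48, and 17.7% of the 99041 regions to which it gave an adjusted p. Regions 35 and 40 missed the threshold with DESeq2 (adjusted p = 0.288 and 0.320) and in the authors' deposited table (DiffBind FDR = 0.105 and 0.134). The call of region 40 was also lost when scaled by reads in regions and with replicate number as a block. Region 36 was not called in C3, where it held 10.82 and 11.79 RPM beside 10.40 and 11.37 RPM in OSKM and 6.26 and 2.99 RPM in C2.

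For H3K27ac in C2 against C3, limma called 0 of 50 regions, with 2 at an unadjusted p under 0.05, and 0.0435% of all regions. edgeR called 1 of 50 and 1.77% of all regions. Region 36 had the lowest p, with 72.49 and 28.42 normalized reads in C2 and 151.65 and 133.09 in C3, a difference of -1.62 ± 0.37 (limma, adjusted p = 0.166).

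**Figure D4:**
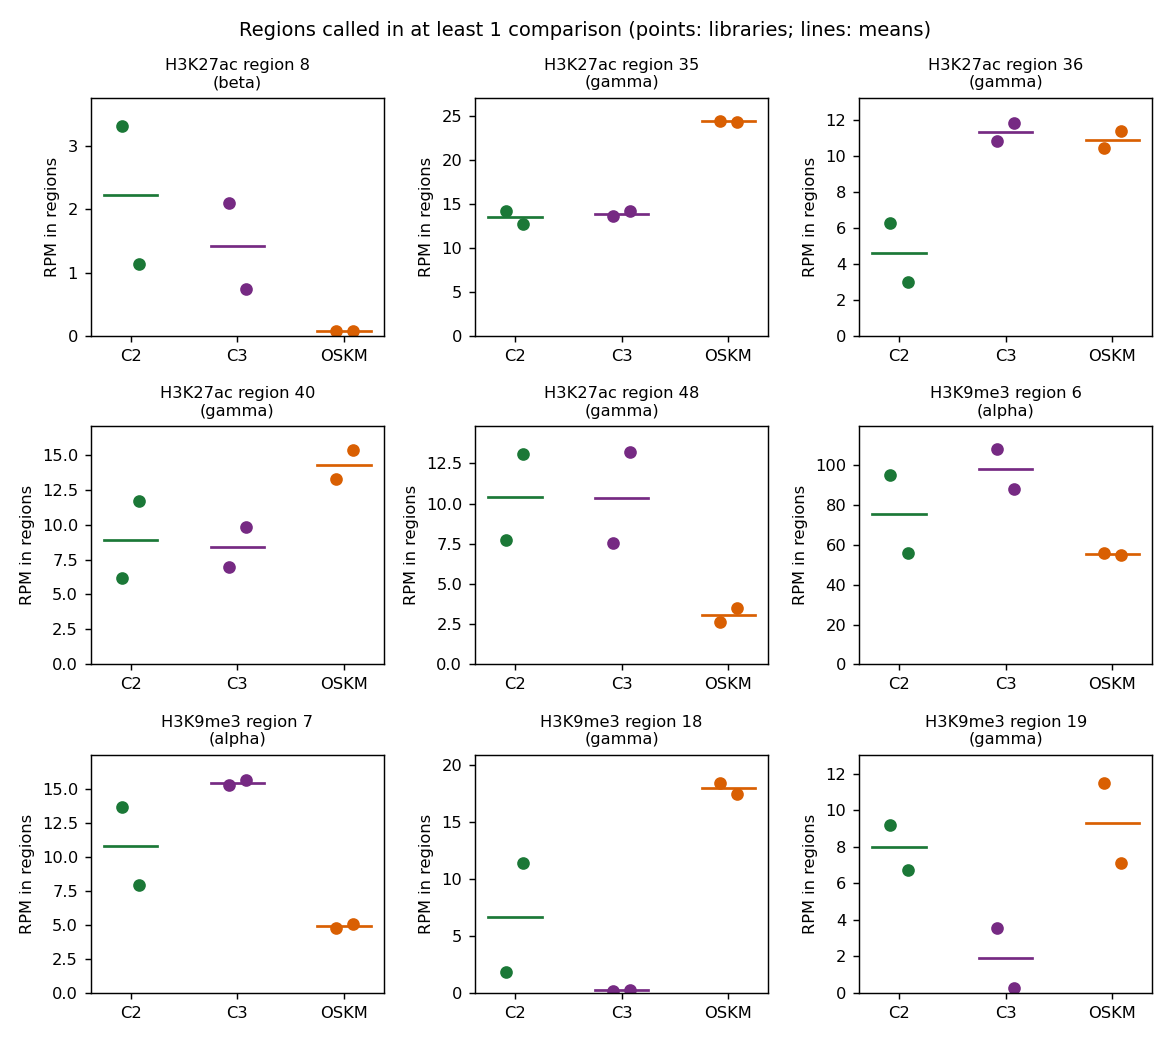
RPM of each library (points) and the mean of 2 libraries (lines) for the 9 regions called in at least 1 comparison. In H3K27ac regions 8, 35, 40 and 48 and H3K9me3 regions 7 and 18 the OSKM points lie apart from all C2 and C3 points. In H3K9me3 region 6 a C2 point lies next to those of OSKM.

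For H3K9me3 in C3 against OSKM, 4 of 19 regions were called, beside 6.73% of all regions (1.26% higher and 5.48% lower). Of these 4, 2 in alpha were higher in C3 and 2 in gamma lower. The members' median was -0.15 and that of all regions 0.04. Scaled by reads in regions the members' median was 0.15, with 4 regions called higher and 2 lower. Region 6 held 604.89 and 478.38 normalized reads in C3 and 378.36 and 379.42 in OSKM, a difference of 0.50 ± 0.13 (limma, adjusted p = 0.0326). Its right-hand neighbour, region 7 (chr18:36990704-36991648, 819 bp left of Pcdha8), held 85.31 and 85.05 against 32.32 and 34.57, a difference of 1.32 ± 0.35 (limma, adjusted p = 0.0204). The calls of regions 6 and 7 may likewise not be separate results. In gamma, region 18 (chr18:37772052-37772905) was at 1 read in both C3 libraries, while OSKM held 124.54 and 119.77 normalized reads. Against the floor of 3 reads per library it was at least 34.21-fold lower in C3 (limma, adjusted p = 0.000158). Region 19 (chr18:37782751-37783527) held 19.82 normalized reads and the value of 1 read, 1.52, in C3 and 77.95 and 49.04 in OSKM, a difference of -3.12 ± 0.75 (limma, adjusted p = 0.0342). Both gamma regions lie in the interval between Pcdhga12 and Pcdhgc3, 269 bp from H3K27ac regions 35 and 40, which were lower in C3. The H3K27ac regions that they overlap, 36 and 39, differed between C3 and OSKM by -0.01 and 0.03 on the log2 scale and were not called. The count was 1 without OSKM replicate 1 and 1 without OSKM replicate 2, where 2.2% and 2.23% of all regions were called. Region 18 was called without each of the 4 libraries in turn.

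For H3K9me3 in C2 against OSKM, limma called 0 of 19 regions, with 3 at an unadjusted p under 0.05, beside 0.986% of all regions. edgeR called 0 of 19 and 1.05% of all regions. Region 18 was split in C2, with 9.17 and 54.36 normalized reads beside 111.64 and 109.41 in OSKM, a difference of -2.23 ± 0.67 (limma, adjusted p = 0.157). In C2 against C3, limma called 0 of 19, with 5 at an unadjusted p under 0.05, beside 0.1% of all regions, and edgeR called 1 of 19 and 0.812% of all regions. C2 held 7.99 and 47.99 normalized reads in region 18 and C3 held 1 read in both libraries, at least 9.97-fold lower (limma, adjusted p = 0.479). From C2 replicate 1 alone the bound was 2.84-fold.

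HA peaks in the clusters were found in alpha alone. C2 cells at day 20 had 4 and 14 HA peaks near alpha genes and Empty cells 2 and 6, while beta and gamma had 0 in all 4 libraries. Empty cells hold no HA-tagged factor, so their peaks measure background. The libraries differed in their number of peaks over the genome, with 12376 and 44939 in C2 and 10666 and 22632 in Empty cells. Of the 14 peaks of C2 replicate 2, 5 overlapped an HA peak of an Empty library, and of the 4 of C2 replicate 1 none did. Between the replicates of C2, 2 of 4 and 2 of 14 peaks were shared. H3K9me3 peaks of C2 iPS cells lay under 2 of the 4 and 5 of the 14, and likewise under 1 of the 2 and 3 of the 6 peaks of Empty cells. No H3K27ac peak lay under a C2 peak, and 1 did under a peak of Empty replicate 2. No peak of any HA library lay within 500 bp of a left end. The counts of the HA libraries are a description, with no test.

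Genes that act on the clusters were compared in the same fits, each by its region with the highest mean. Over all regions, weak ones included, limma called 7.63% for H3K27ac in C2 against OSKM and 15.8% in C3 against OSKM. For H3K9me3 it called 0.986% and 6.73%. Of 11 CTCF and cohesin genes, H3K27ac was lower at 2 in C2 against OSKM (Ctcf and Mau2) and none was higher. In C3 the same 2 were lower and Pds5b was higher. At Ctcf, which encodes the protein bound at the protocadherin promoters and enhancers, H3K27ac was 20.94 and 22.61 RPM in C2, 23.63 and 17.78 RPM in C3 and 48.39 and 47.32 RPM in OSKM. The log2 differences from OSKM were -1.49 ± 0.22 in C2 (limma, adjusted p = 0.0109) and -1.28 ± 0.27 in C3 (limma, adjusted p = 0.0157). Of 14 repressor genes, H3K27ac was lower in C2 at Dnmt3a, a DNA methyltransferase, Wiz and Suv39h1, an H3K9 methyltransferase, and in C3 at Wiz. Setdb1 was called in neither, at 13.44 and 13.22 RPM in C2, 8.22 and 9.58 RPM in C3 and 12.42 and 6.58 RPM in OSKM. At Smchd1, H3K9me3 was lower in both lines, with 30.53 and 45.71 RPM in C2, 35.58 and 29.06 RPM in C3 and 68.42 and 68.90 RPM in OSKM. These differences were -1.20 ± 0.19 (limma, adjusted p = 0.0342) and -1.40 ± 0.15 (limma, adjusted p = 0.000181). In C3 against OSKM, H3K9me3 was lower as well at Atf7ip, a partner of SETDB1, with 40.36 and 54.76 against 55.77 and 62.35 RPM, so that 2 of 4 repressor genes with an H3K9me3 region were called. It was also lower at Stag1, a cohesin subunit, with 18.18 and 20.12 against 33.29 and 41.06 RPM, 1 of 3 such genes called. The log2 differences were -0.63 ± 0.15 at Atf7ip (limma, adjusted p = 0.0247) and -1.25 ± 0.18 at Stag1 (limma, adjusted p = 0.00142). Of 12 non-clustered protocadherins, 8 had an H3K27ac region, and 1 was called in each comparison with OSKM, Pcdh12 higher in C2 and Pcdh15 higher in C3. None of 14 neighbouring genes on chromosome 18 was called for H3K27ac by limma in the 3 comparisons, each at its strongest region. Some of them share a region (Zmat2 with Hars2, Dnd1 with Wdr55, Ik with Ndufa2 and Rell2 with Fchsd1), so these are not separate results. A weaker region beside that of Taf7 (chr18:37642434-37642894) was called higher in C3 than in OSKM, as given under the other observations.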

How the data were processed

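The authors' processing, per the submitters' processing notes, relied on DiffBind 1.16.2, SAMtools 1.3, Bowtie2 2.2.5 and CASAVA 1.8.2, and on the mm10 build. Peaks were called per library against input at a q-value of 0.01 with MACS, version 2.1.1.20160309 for HA and version 2.1.0.20150731 for both histone marks, per the file headers. The deposited peak files give pileup signal, -log10 p and q, and a fold enrichment ratio. The deposited region tables give normalized reads (signal), log2 fold changes and p-values with FDR. Any subtraction of input reads is not given in the sources used here. Dividing by each library's value of 1 read gave whole reads, from which RPM were computed.

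Gene extents came from RefSeq (GRCm38.p6, the same coordinates as mm10), without strand or exons. Tests used limma 3.58.1 in R 4.3.3 with a pseudocount of 1. Alternatives used edgeR 4.0.16 and DESeq2 1.42.0 on the recovered reads, and the limma calls were tested on simulated data. Python 3.11.15, NumPy 2.4.6, pandas 2.3.3 and matplotlib 3.10.9 did the rest. Regions are named where called, among the 5 strongest per mark and cluster, or nearest a c-type gene. Related genes are named where called, with Ctcf, Setdb1 and Smchd1 always. Members and lists were chosen with earlier results of these data known.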

Additional observations from a re-analysis of the deposited data

How the results depend on the processing

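Of the 12 calls in the clusters, 12 held with edgeR and with median-centred libraries. With a pseudocount of 8, 8 held, and 7 did in the authors' deposited table. DESeq2 kept 5, none of them a lower H3K27ac call. Quantile normalization kept 0, and under it at most 10 regions of either table were called. A call required both fits, so each call holds in either fit alone by definition. None of the 12 changed direction. Of the other 57 comparisons of the 23 named regions, none called, 31 changed sign under at least 1 alternative, 10 of them when scaled by reads in regions, with differences of at most 0.88 in size on the log2 scale. Among these were Pcdhgc3 (H3K27ac region 42) and H3K9me3 regions 6, 13 and 15 in C2 against OSKM. The number of H3K27ac regions called in C2 against OSKM was 1 with a pseudocount of 8, 1 with DESeq2 and 0 with quantile normalization, and 1 to 11 with 1 library left out. In C3 against OSKM it was 2 with DESeq2, 0 with quantile normalization and 1 to 5 with 1 library left out. In C2 against C3 it was 1 in the fit on all regions alone, 1 with edgeR and 0 to 2 with 1 library left out. For H3K9me3 in C3 against OSKM it was 0 with quantile normalization and 1 to 5 with 1 library left out, in C2 against OSKM 0 to 3, and in C2 against C3 0 to 1, with 1 in the fit on all regions alone, 1 with edgeR and 1 in the authors' deposited table. The cause was not tested.

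The labels do not tie equal replicate numbers to a shared batch, and the deviations of same-numbered libraries correlated at -0.04 to 0.34 over the 6 comparisons, so no pairing was assumed. With the replicate block, 11 of the 12 calls held, H3K27ac in C2 against C3 gave 2 calls and H3K9me3 in C2 against OSKM gave 1. Scaling by reads in regions, chosen after seeing the data, kept 9 of the 12. It moved the median of all regions by 0.19 (H3K27ac) and 0.30 (H3K9me3) in C2 against OSKM and by 0.29 (H3K9me3) in C3 against OSKM. The share of called regions that were higher then went from 48.7% to 72.3%, from 9.1% to 40.4% and from 18.7% to 65.3%, and for H3K27ac in C2 against C3 from 47.5% to 59.0%. With 2 libraries per group and low reads in most member regions, a difference that missed the threshold does not show that lines were alike.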

Other observations

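Stretches between the member genes, which the choice of members leaves out, also held both marks. They are not free of other genes. Between Pcdhac2 and Pcdhb1, H3K9me3 lay in 2 regions, and that at chr18:37234583-37242550 held 115.82 and 84.69 RPM in C2, 130.47 and 134.10 RPM in C3 and 90.05 and 91.36 RPM in OSKM. Between Pcdhb8 and Pcdhb9, in the middle of the beta cluster, 4 further H3K9me3 regions lay over genome that no member gene covers. The broadest (chr18:37361615-37373136) held 101.45 and 78.83 RPM in C2, 115.22 and 107.56 RPM in C3 and 72.91 and 77.20 RPM in OSKM. The region at chr18:37383596-37385766 held 32.99 and 25.20 RPM in C2, 36.81 and 35.20 RPM in C3 and 12.22 and 11.46 RPM in OSKM, and was called higher in C3 than in OSKM with a log2 difference of 1.29 ± 0.21 (limma, adjusted p = 0.00171). The C2 and C3 libraries all lay above both OSKM libraries there.

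Between Pcdhb22 and Pcdhga1 lay 8 H3K27ac regions. Among them, chr18:37638252-37639097 was the region compared above for Slc25a2 and chr18:37643085-37645370 that for Taf7. At chr18:37618320-37619598 both OSKM libraries were at 1 read, while C2 had 56 and 24 reads and C3 had 171 and 61. It was called in both comparisons with OSKM (limma, adjusted p = 0.0212 in C2 and 0.00420 in C3). At chr18:37642434-37642894 OSKM was again at 1 read in both libraries, C2 had 24 and 11 reads and C3 had 55 and 30, and the call was made in C3 (limma, adjusted p = 0.00935) and missed in C2 (limma, adjusted p = 0.0520).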
